A study of Homo sapiens with 8 samples.

Results

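This account describes 40 genes of nucleolar ribosome assembly and RNA polymerase I in the NALM6 cell line, which was established from a human acute lymphoblastic leukemia of the B lineage. The genes were taken from a fixed list by symbol, and all 40 were found among the 23621 gene rows of the deposited tables. All 40 also had a mean of at least 1 FPKM (mapped fragments scaled to transcript length and library size) over the 8 libraries, as did 11465 genes in all.

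The cells carried a doxycycline-inducible construct of HMGN1, a nucleosome-binding protein. The construct encoded wild-type HMGN1 (WT) or the S20,24E mutant, which does not bind nucleosomes (SE). Either line was treated for 6 hours with vehicle or with 100 ng/ml of doxycycline (DOX), so both constructs were present in treated and untreated cells and every group shared the NALM6 background. This gave 4 groups of 2 libraries (vehicle and DOX for WT, vehicle and DOX for SE), with replicates lettered A and B. The labels call them biological replicates and do not say how the cultures were kept apart, or whether each construct line was a clone or a pool, so p-values measure only the spread between these libraries. Poly(A) RNA was sequenced, and the same volume of ERCC spike-ins, synthetic RNAs of known amount, was added to the RNA of an equal number of cells.

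Ribosomes are built in the nucleolus. RNA polymerase I transcribes the precursor of the large ribosomal RNAs, small nucleolar ribonucleoproteins (snoRNPs) guide its chemical modification, and successive assembly factors fold and cleave it into the small (40S) and large (60S) subunits. In dividing cells, leukemia cells included, the genes of this pathway are abundantly expressed, and many are known targets of the transcription factor MYC, which with its partner MAX binds the E-box CACGTG. The 40 genes comprise the box C/D snoRNP proteins FBL, NOP56 and NOP58, the box H/ACA snoRNP proteins DKC1, GAR1, NHP2 and NOP10, and the nucleolar multifunctional proteins and RNA modifiers NCL, NPM1, NOLC1, DDX21, NAT10 and LYAR. NOP14, UTP20, WDR43, RRP9, RRP12, BYSL, TSR1, LTV1 and DDX10 act on the 40S subunit. BOP1, PES1, WDR12, NOP2, NOP16, NIP7, EBNA1BP2, GNL3, GNL2, MRTO4, NOC2L, NOC3L and RRS1 act on the 60S subunit. POLR1A, POLR1B and POLR1C are polymerase I subunits, and UBTF and RRN3 are factors that start its transcription. The libraries measured the messenger RNAs of these factors. Ribosomal RNA itself and the activity of polymerase I were not measured.

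The E-box was looked for in RefSeq promoter windows (GRCh38.p14), each running from 250 bases before to 50 bases after an annotated start. Windows were found for 35 of the 40 genes, 44 windows in all. CACGTG, which reads the same on both strands, was in 20 of the 44 windows (45.5%) and in 19 of the 35 genes (54.3%). The share was 19.2% of the windows of the 109 other ribosome assembly and polymerase I genes, 9.69% of those of all genes tested that had a window, and 7.26% of all windows in the table. Of the 21 sites in these genes, 13 (61.9%) began within the 50 bases after the start, against 10.3% of the sites in all genes tested. A match is a stretch of letters and was not tested as a bound site.

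No polymerase I gene had a match in its windows, and neither did NPM1 or NCL. Of the 19 genes with a match, 8 are printed because between them they cover the other 5 role classes and hold genes described below. Each is a stretch of 30 bases, 5′ to 3′ on the gene's strand, with the E-box in capitals.
FBL: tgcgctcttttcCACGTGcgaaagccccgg
NOP10: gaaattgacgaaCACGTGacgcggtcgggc
GAR1: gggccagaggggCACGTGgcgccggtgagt
DDX21: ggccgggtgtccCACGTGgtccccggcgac
WDR43: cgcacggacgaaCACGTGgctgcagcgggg
UTP20: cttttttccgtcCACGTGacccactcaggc
GNL3: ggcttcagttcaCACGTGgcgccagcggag
PES1: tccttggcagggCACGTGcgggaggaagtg

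In GRCh38.p14 these stretches lie at chr19:39846356-39846385 on the minus strand for FBL, chr15:34343130-34343159 on the minus strand for NOP10 and chr4:109815781-109815810 on the plus strand for GAR1. Those of DDX21 (chr10:68956604-68956633), WDR43 (chr2:28894658-28894687), UTP20 (chr12:101280083-101280112) and GNL3 (chr3:52686026-52686055) lie on the plus strand, and that of PES1 (chr22:30591880-30591909) on the minus strand. The motif began at position 4 after the start in WDR43, 7 in FBL and GNL3, 14 in PES1 and 32 in GAR1. In UTP20, NOP10 and DDX21 it began 10, 11 and 31 bases before the start, at positions -10, -11 and -31. NOP10 had a second site, at position -170, which is not printed.

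Libraries were compared with the labels before the genes were read. HMGN1 stood at 809 (A) and 796 (B) unnormalized FPKM in WT cells on vehicle and 793 and 795 on DOX, and in SE cells at 1427 and 1066 on vehicle and 1421 and 1061 on DOX. On this scale no DOX library exceeded the vehicle library of its letter, and every SE library lay above every WT library. On the spike-in-normalized scale used for the tests the constructs overlapped, with 837 to 1021 in WT and 968 to 1306 in SE. Whether transcripts of the construct count toward this row is not stated, so the row does not check the DOX labels, and groups are named by their labels throughout. The 10 B-lineage markers all had a mean of at least 1, from 27.0 to 877 FPKM, and their library sums ran from 1962 to 2455. No T-cell marker had such a mean (0 of 6; CD3G, CD2 and TRAT1 at 0), with a highest library sum of 0.0701. Of 6 myeloid markers 1 did, with library sums from 1.55 to 4.90 and S100A8 at 0. The spike-ins took 0.531% to 1.06% of the unnormalized FPKM, with the highest share in SE DOX A. The median gene of SE DOX A was also the lowest, at 3.41 on the log2 scale of spike-in-normalized FPKM plus 0.1, against 3.76 to 4.23 in the other 7 libraries. Every SE median (3.41 to 3.90) lay below every WT median (3.99 to 4.23). Every SE spike-in share (0.719% to 1.06%) lay above every WT share (0.531% to 0.569%). In bulk RNA, fewer cells in a sample and less RNA per cell cannot be told apart.

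The 40 genes were well expressed in every library. Their means over the 8 libraries ran from 14.0 to 1671 unnormalized FPKM, with a median of 68.8 against 15.1 for all genes tested. Only UTP20, a scaffold protein of the small subunit processome, lay below the median gene, and 17 of the 40 lay among the top 10% of genes. NPM1 (nucleophosmin) and NCL (nucleolin), the abundant nucleolar chaperone proteins, together held 42.3% of the summed FPKM of the 40 genes. NPM1, NCL and FBL held ranks 1, 2 and 3 in all 8 libraries, and UTP20 the last.

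Among the nucleolar multifunctional proteins and RNA modifiers, NPM1 read 1870 and 1801 FPKM in WT vehicle A and B, 1863 and 1778 in WT DOX, 1336 and 1723 in SE vehicle and 1286 and 1715 in the SE DOX libraries. The SE A libraries were the low ones, and all 4 SE libraries lay below all 4 WT libraries. NPM1 has 45 gene names of pseudogenes in the GENCODE annotation, and 12 of the 40 genes have at least 1, so reads of these genes can be divided with copies. NCL read 917 and 987 in WT vehicle, 916 and 986 in WT DOX, 788 and 925 in SE vehicle and 762 and 907 in the SE DOX libraries. Its lowest values were again in the SE A libraries, and SE vehicle B overlapped the WT libraries. The lowest of the 6 genes in this class was NAT10, the acetyltransferase of the small subunit RNA, with a mean of 64.9 FPKM and values from 57.6 to 70.1.

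FBL, the methyltransferase of the box C/D snoRNPs, read 357 and 350 FPKM in WT vehicle, 357 and 335 in WT DOX, 286 and 345 in SE vehicle and 272 and 358 in the SE DOX libraries. The B libraries of both constructs overlapped. NOP58, a scaffold protein of the same particles, was the lowest of the 3 box C/D genes with a mean of 146 FPKM. In the box H/ACA snoRNPs, which make pseudouridine, NHP2 read 265 and 257 in WT vehicle, 254 and 250 in WT DOX, 183 and 248 in SE vehicle and 188 and 258 in the SE DOX libraries. The 2 SE A libraries stood apart and the other 6 lay between 248 and 265. GAR1, the lowest of the 4 H/ACA genes, had a mean of 78.0 FPKM.

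The assembly factors were lower. The 9 genes of the 40S class had a median of 41.8 FPKM, between UTP20 at 14.0 and WDR43, a processome subunit, at 68.6. The 13 genes of the 60S class had a median of 69.0, between NOC3L at 30.2 and GNL3 (nucleostemin, a nucleolar GTP-binding protein) at 143. The 5 polymerase I genes had a median of 36.4, between POLR1A, the largest catalytic subunit, at 26.4 and UBTF, the factor that binds the ribosomal RNA gene promoter, at 77.2. Across the 8 libraries the highest unnormalized value exceeded the lowest by a factor of 1.08 (NOC3L) to 1.45 (NPM1), with a median of 1.21. In the spike-in-normalized table the factor was 1.68 (NOP2) to 2.60 (NPM1), with a median of 2.04.

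**Figure D1:**
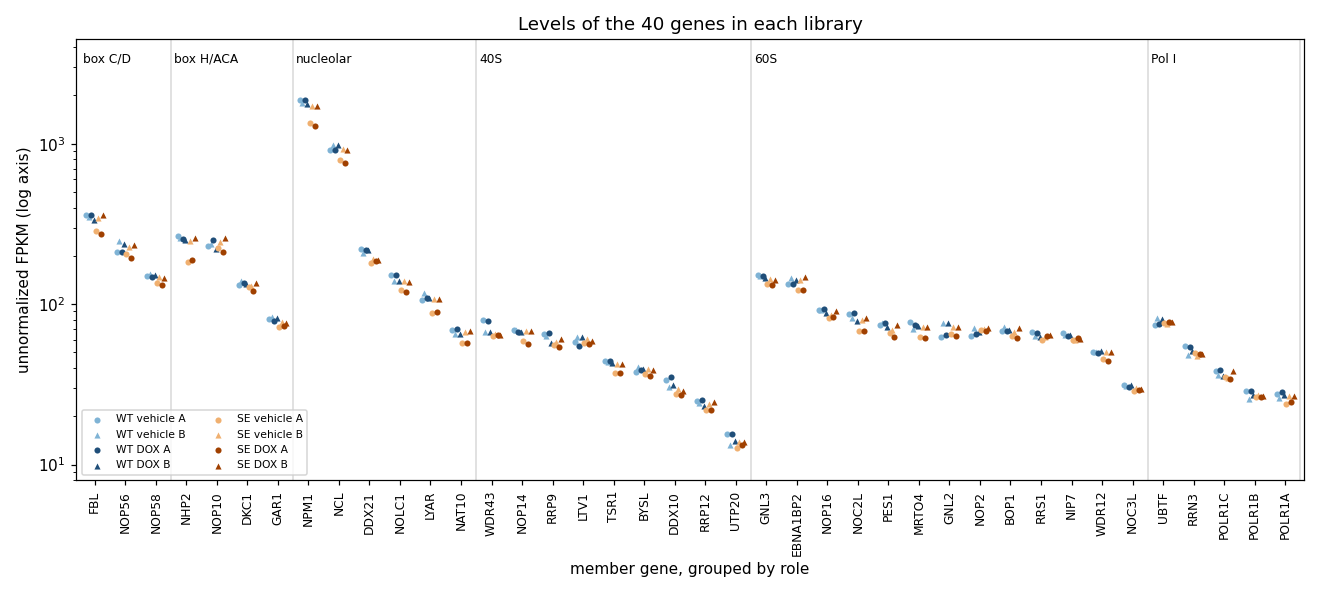
Unnormalized FPKM (log axis) of the 40 genes in each of the 8 libraries, grouped by role and ordered by mean within a role; circles are replicate A and triangles replicate B. NPM1, NCL and FBL lead in every library and UTP20 is last, and the orange circles (SE A libraries) are low for NPM1, NCL, FBL and NHP2.

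The first comparison asked what DOX did in cells with the wild-type construct. None of the 40 genes passed the test (limma on log2 of normalized FPKM plus 0.1, Benjamini-Hochberg adjusted p under 0.05), where 0.0698% of all genes tested did (8 of 11465). None had an unadjusted p under 0.05 either, against 0.323% of all genes. The median log2 fold change of the 40 was -0.04, with 4 genes above 0 and 36 below, and that of all genes was -0.03. Below 0 were also 101 of the 109 other ribosome assembly and polymerase I genes. Of all genes tested, 61.4% fell below 0 in the A pair of libraries and 74.5% in the B pair. Among the 40, the lowest values were those of RRP9, a protein of the U3 snoRNP, at -0.08 (standard error 0.26), and NHP2 at -0.08 (standard error 0.33). The highest were those of POLR1A and of DDX10, a helicase of 40S assembly, both at 0.02 (standard error 0.24). The adjusted p was 1.00 for every one of the 40 in this limma test. The 95% intervals of the 40 genes in this fit reached a median of 0.57 to either side on the log2 scale. The fit did not pair libraries by letter, so these intervals also hold the difference between A and B libraries. With the letter as a replicate block, the standard errors were 0.13 for RRP9, 0.15 for NHP2, 0.11 for POLR1A and 0.12 for DDX10.

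In cells with the SE construct, the question was the same. The 40 genes had a median log2 fold change of -0.24 with DOX, and all genes tested also had -0.24, a shift that was absent from the unnormalized table, where the medians were -0.0002 for the 40 genes and -0.0005 for all. In the limma test without a replicate block, none of the 40 passed (0.0523% of all genes did). None had an unadjusted p under 0.05 in that fit (0.436% of all genes). NCL and NOLC1, a chaperone of snoRNPs, had the lowest fold changes, both -0.28 (standard error 0.28, limma adjusted p 0.537). RRS1 and NOP16, factors of 60S assembly, had the highest, -0.19 (standard error 0.24, adjusted p 0.543) and -0.18 (standard error 0.25, adjusted p 0.560). Without SE DOX A the median of the 40 genes was 0.02, and without SE DOX B it was -0.51.

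Replicate by replicate, DOX minus vehicle gave a median of -0.03 for WT A and -0.05 for WT B over the 40 genes, and of -0.37 for SE A and -0.11 for SE B. The medians of all genes tested were -0.02, -0.05, -0.35 and -0.13 in the same order. Between 38 and 39 of the 40 genes lay within 0.1 of the all-gene median in each of these pairs, so the spread around the common shift was small beside the shift in SE A. The share of all genes tested within 0.1 was not counted, so this closeness is not shown to be particular to the 40. The log2 values of each library were then shifted so that all libraries had the same median over the genes tested (equal library medians). On that scale 5 of the 40 genes had both WT DOX libraries below both WT vehicle libraries (NOP58, NHP2, NOP14, BOP1 and NIP7), where 6.8% of all genes did, and 0 had them above (5.89% of all genes). In SE, 3 of the 40 had both DOX libraries above (NIP7, RRS1 and UBTF, against 5.43% of all genes) and 1, WDR43, below (6.01%).

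The difference between the DOX effects of the constructs was also tested. None of the 40 genes passed (0.0785% of all genes tested did), and none had an unadjusted p under 0.05 (0.288%). The median of WT effect minus SE effect was 0.20 for the 40 genes and 0.21 for all, and with equal library medians -0.006 for the 40 genes and -0.0005 for all. NHP2 had the smallest difference, 0.11 (standard error 0.46), followed by NOP16 at 0.13 (standard error 0.36). With equal library medians these were -0.10 and -0.08. The largest were those of GNL2, a GTP-binding protein of 60S assembly, at 0.26 (standard error 0.34) and DDX10 at 0.28 (standard error 0.34). Their limma adjusted p ran from 0.830 to 0.870. Leaving out SE DOX A turned the median of the 40 genes to -0.05, and leaving out SE DOX B raised it to 0.47.

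WT was compared with SE in vehicle, where HMGN1 was not induced by design. All 40 genes had log2 fold changes above 0, with a median of 0.41 against 0.32 for all genes tested. So did 108 of the 109 other ribosome assembly and polymerase I genes. On this scale 65.2% of all genes tested had every WT library, vehicle and DOX, above every SE library, as did 39 of the 40. That rule is stricter than a fold change above 0 in vehicle. The share of all genes above 0 was therefore at least 65.2%. None of the 40 passed the limma test (0.183% of all genes did) and none of them had an unadjusted p under 0.05 (7.12%). NPM1 read 2359 and 1902 normalized FPKM in WT vehicle A and B and 1225 and 1694 in SE vehicle. Both WT values lay above both SE values, with a fold change of 0.56 (standard error 0.32, adjusted p 0.339). NHP2, at 335 and 274 against 167 and 245, had the largest fold change, 0.59 (standard error 0.33, adjusted p 0.339). The smallest were those of NOP2, a methyltransferase of the large subunit RNA, at 0.24 (standard error 0.23, adjusted p 0.431) and NOP10, a small H/ACA protein, at 0.29 (standard error 0.29, adjusted p 0.449). With equal library medians the fold change was -0.06 for NOP2 and -0.01 for NOP10, and the median of the 40 genes was 0.11.

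In DOX, the 40 genes had a median log2 fold change of 0.61 for WT against SE, and all genes tested had 0.53. None of the 40 passed the limma test (0.105% of all genes did). The lowest adjusted p among them was 0.0765, and 33 of the 40 had an unadjusted p under 0.05, where 60.4% of all genes tested did. NPM1 read 2285 and 1871 normalized FPKM in WT DOX A and B against 909 and 1565 in SE DOX, a fold change of 0.79 (standard error 0.32, adjusted p 0.0766). DDX10 read 43.7 and 32.8 against 19.2 and 26.2, a fold change of 0.75 (standard error 0.24, adjusted p 0.0765). For both genes the groups did not overlap. NOP2 (0.43, standard error 0.23, adjusted p 0.116) and NOP10 (0.52, standard error 0.29, adjusted p 0.131) again had the smallest values. Without SE DOX B, 40 of 40 genes passed, as did 72.3% of all genes, and without SE DOX A none did. The median with equal library medians was 0.10.

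**Figure D2:**
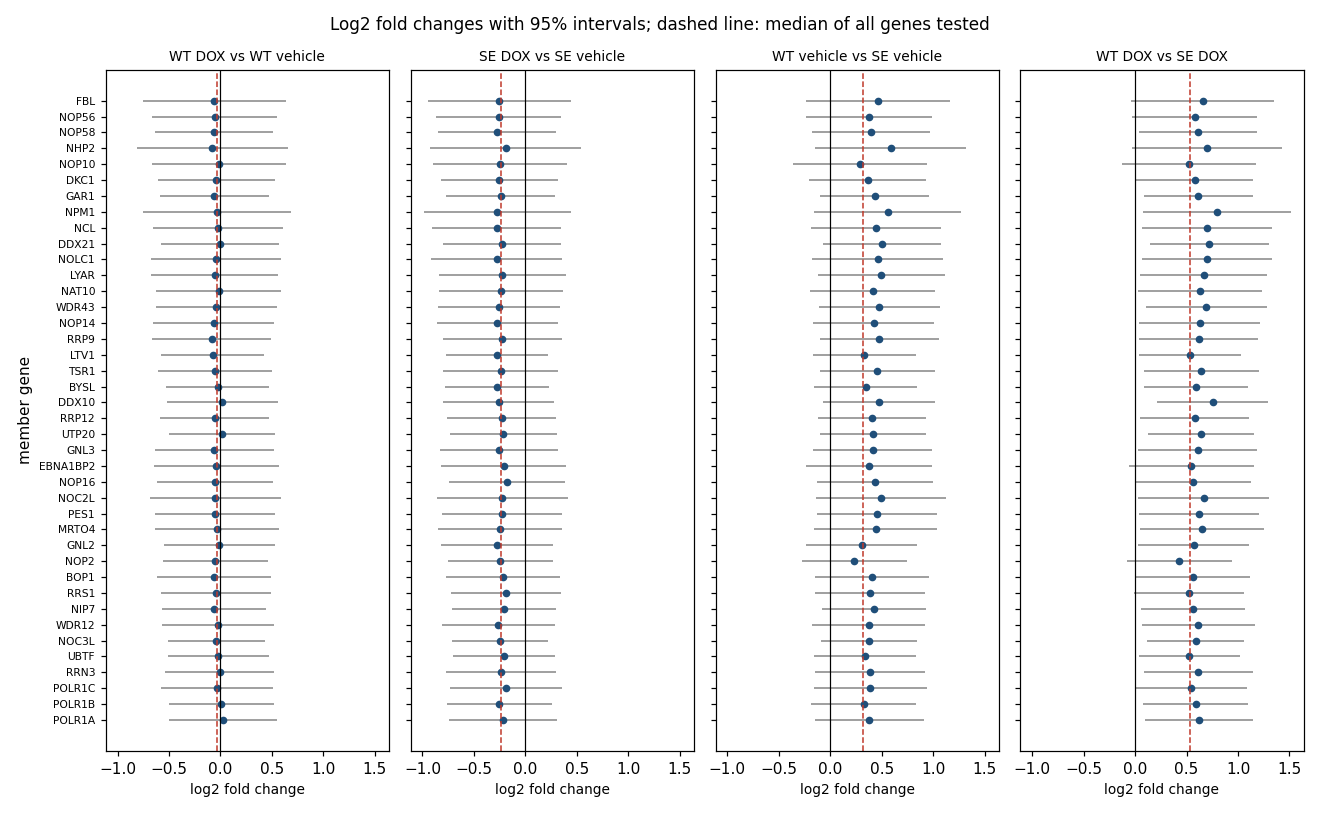
Log2 fold change of each of the 40 genes (points) with its 95% interval (grey line) in 4 comparisons, with the median of all genes tested as a dashed line. The genes lie along the dashed line in both DOX comparisons and mostly to its right where WT is set against SE, and the intervals are wide beside the distances between genes. The intervals come from the fit that did not pair libraries by letter.

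One value per library was also tested, the median of the 40 genes. In WT vehicle it was 6.38 ± 0.16 (SD, n = 2) on the log2 scale of normalized FPKM plus 0.1, and in WT DOX 6.34 ± 0.19, in SE vehicle 5.99 ± 0.17 and in SE DOX 5.75 ± 0.38. An exact two-sided permutation test gave p = 0.33 for WT against SE in vehicle and again in DOX, and p = 0.667 for DOX against vehicle in each construct. With 2 libraries against 2, the smallest p this test allows is 0.33.

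Because the median of all genes differed between libraries, each library's median was subtracted. The 40 genes then lay 2.26 (A) and 2.23 (B) above the library median in WT vehicle, 2.26 and 2.22 in WT DOX, 2.11 and 2.21 in SE vehicle and 2.06 and 2.25 in the SE DOX libraries. The SE A libraries were the 2 lowest, and SE DOX B lay above both WT B libraries. The exact two-sided permutation p was 0.33 for WT against SE in vehicle, 0.667 in DOX and 1.00 for DOX against vehicle in each construct.

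On this scale 39 of the 40 genes had a higher mean in WT than in SE, all but NOP2, and the median difference was 0.10, against 0.02 for all genes tested, of which 56.1% had a higher mean in WT. So had 87.2% of the 109 other ribosome assembly and polymerase I genes and 97.4% of the 76 cytosolic ribosomal protein genes. Set against the SE B libraries alone, the median of the 40 genes was 0.04 (all genes 0.01) and 33 of their differences (82.5%) were above 0. The share above 0 was 54.6% of all genes tested and 67.0% of the 109 other ribosome assembly and polymerase I genes. It was 98.7% of the 76 cytosolic ribosomal protein genes. The nucleolar class had the largest median difference, 0.18, then the 40S class at 0.13, the box C/D class at 0.10, the box H/ACA class at 0.09, the 60S class at 0.09 and the polymerase I class at 0.06. Against SE B alone these were 0.06, 0.05, -0.01, 0.02, 0.04 and 0.03. In the 19 genes with an E-box the median WT minus SE difference was 0.12, from -0.07 to 0.21, and in the 16 with windows but no E-box it was 0.09, from 0.03 to 0.27, so the groups overlapped.

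On spike-in-normalized values, 39 of the 40 genes had all 4 WT libraries above all 4 SE libraries, NOP10 being the exception, where 65.2% of all genes tested did, and 0 had them below (0.34%). Above were also 100 of the 109 other ribosome assembly and polymerase I genes (91.7%) and 70 of the 76 cytosolic ribosomal protein genes. With equal library medians, 9 of the 40 had all WT libraries above all SE libraries: GAR1, NPM1, DDX21, WDR43, TSR1, DDX10, NIP7, GNL3 and NOC3L. The background was 11.5% of all genes higher and 7.84% lower, and 0 of the 40 were lower. Of the 109 other genes of the pathway, 15.6% were higher and 0.917% lower. Among the 9 genes the largest differences were 0.27 for NPM1 and 0.21 each for DDX10 and DDX21, a helicase that joins polymerase I transcription and RNA processing. DDX21 lay at 3.89 and 3.76 above the library median in WT vehicle, 3.84 and 3.85 in WT DOX, 3.59 and 3.65 in SE vehicle and 3.61 and 3.65 in the SE DOX libraries. Its SE A and B libraries were close together, and its difference was 0.18 against SE B alone. NPM1 lay at 6.97 and 6.87 in WT vehicle A and B, at 6.94 and 6.88 in WT DOX, and at 6.50, 6.82, 6.41 and 6.84 in SE vehicle A, SE vehicle B, SE DOX A and SE DOX B, and its difference was 0.08 against SE B alone. These 9 genes necessarily lay above the SE B libraries alone as well, since those are part of the 4 SE libraries. No further gene of the 40 joined them there, so 22.5% were higher against 18.0% of all genes. Against SE B alone 0 of the 40 were lower (14.2% of all genes).

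The replicate letters divided the SE libraries. With equal library medians, 34 of the 40 genes had both SE A libraries below both SE B libraries, where 40.2% of all genes tested did, and 0 had them above (31.9%). Below were also 85 of the 109 other ribosome assembly and polymerase I genes (78.0%) and 15 of the 76 cytosolic ribosomal protein genes. The median A minus B in SE was -0.14 for the 40 genes and -0.02 for all genes. NHP2 had -0.44, NPM1 -0.37 and FBL -0.33. In WT the median A minus B was 0.05 for the 40 genes and 0.003 for all. There 20 of the 40 had both A libraries above both B libraries (38.0% of all genes) and 10 had them below (35.8%). What the letters stand for beyond a biological replicate is not in the labels, and their part in the WT to SE difference was not tested beyond the values without SE A.

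**Figure D3:**
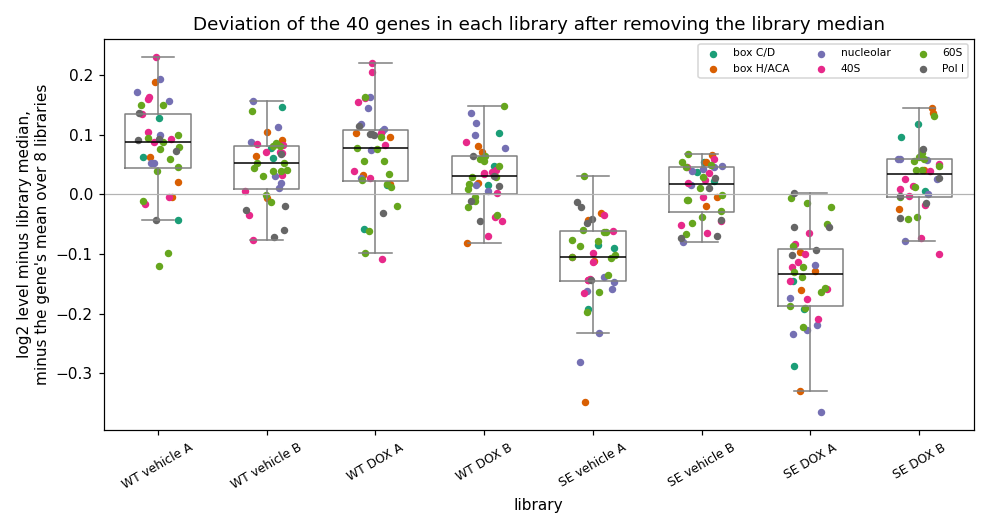
Each of the 40 genes (points, coloured by role) in each library, as its log2 level minus the library median and minus the gene's mean over the 8 libraries. Boxes give the quartiles and median, and whiskers the range without outlying genes, which are shown only as points. Both SE A libraries lie below 0 for nearly all genes, and the SE B libraries lie among the WT B libraries.

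The other genes of the pathway were read from a list of 109 further assembly factors, snoRNP and polymerase I genes. In the limma test without a replicate block 0 of the 109 passed in any of the 5 comparisons. Their median log2 fold changes were -0.04 for DOX in WT, -0.24 for DOX in SE, 0.20 for the difference, 0.40 for WT against SE in vehicle and 0.61 in DOX, each within 0.02 of the median of the 40 genes. With an unadjusted p under 0.05 there were 0, 0, 0, 1 and 88 of them. EIF6, which keeps the subunits apart, had the largest WT to SE value in vehicle, 0.63 (standard error 0.22, adjusted p 0.339), and EMG1, a methyltransferase of the small subunit RNA, the largest in DOX, 0.85 (standard error 0.33, adjusted p 0.0765). RRP15, a 60S factor, had the smallest in both, -0.08 (standard error 0.22, adjusted p 0.775) and 0.15 (standard error 0.22, adjusted p 0.540). For DOX in WT the extremes were TAF1B, a subunit of the polymerase I selectivity factor, at -0.14 and MDN1, a 60S remodelling ATPase, at 0.05. In SE they were TAF1A, of the same selectivity factor, at -0.31 (limma adjusted p 0.537, and 0.0387 with the letter as a replicate block) and POLR2L, a subunit shared by the nuclear polymerases, at -0.15. For the difference of effects they were TAF1B at 0.08 and SHQ1, an assembly chaperone of H/ACA particles, at 0.30.

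With library medians removed, the 109 genes had a WT minus SE median of 0.10 and an A minus B median in SE of -0.10. The 76 cytosolic ribosomal protein genes, whose products the pathway assembles, had 0.15 and -0.02. In WT their A minus B median was 0.31, with 75 of the 76 higher in both A libraries (38.0% of all genes), where the 40 genes had 0.05.

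Ratios between members of a complex within a library do not depend on the scaling of the library. In the box C/D particle, the log2 ratio of NOP56 to FBL ran from -0.75 to -0.48 over the 8 libraries and that of NOP58 to FBL from -1.29 to -1.04. In the H/ACA particle, GAR1 to DKC1, the pseudouridine synthase, ran from -0.83 to -0.71 and NOP10 to DKC1 from 0.73 to 0.93. NHP2 to DKC1 was 0.52 in SE vehicle A and 0.64 in SE DOX A, and lay between 0.89 and 1.01 in the other 6 libraries. In the complex of BOP1, PES1 and WDR12, which matures the 60S subunit, BOP1 to PES1 ran from -0.16 to -0.03 and WDR12 to PES1 from -0.60 to -0.46. In polymerase I, POLR1B, the second large subunit, stood to POLR1A at -0.01 to 0.13, and POLR1C, a subunit shared with polymerase III, at 0.37 to 0.57. The WT and SE libraries overlapped in all 9 ratios.

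**Figure D4:**
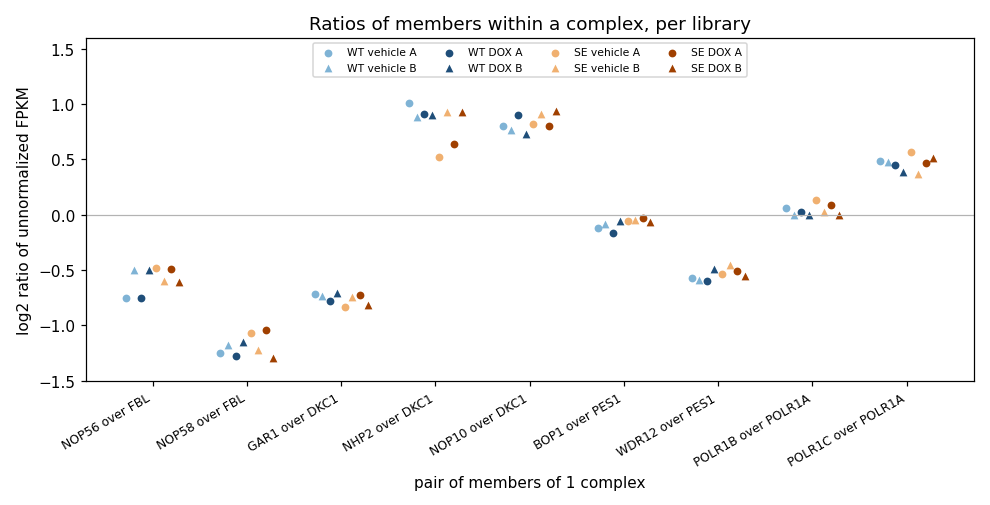
Log2 ratio of unnormalized FPKM for 9 pairs of genes in 4 complexes, in each of the 8 libraries; circles are replicate A and triangles replicate B. POLR1B over POLR1A lies on both sides of 0 while the other 8 pairs keep their sign, and NHP2 over DKC1 is lower in the SE A libraries (0.52 and 0.64) than in the other 6 (0.89 to 1.01).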

How the data were processed

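The authors deposited 2 tables of FPKM per gene, unnormalized and spike-in-normalized, with 23713 rows 92 of them for spike-ins. The submitters' processing notes list HISAT, Cufflinks 2.0.0 and hg19, and how values were normalized is not stated there. The files hold no counts, so depth is unknown and counting error cannot be given. Genes with a mean of at least 1 (11465) were analysed as log2(normalized FPKM + 0.1), a scale that understates changes of low genes. limma 3.58.1 in R 4.3.3 (empirical Bayes, mean-variance trend) was fitted to the 4 group means, adjusted by Benjamini-Hochberg over all genes, with a threshold of 0.05. It was tried on simulated data for WT DOX against vehicle only. Noise there was independent between genes, so shifts shared by the genes of a library were not covered. WT against SE with equal library medians, library by library, and the E-box search are descriptions. Named genes are the extremes of each comparison and role, the members of the 4 complexes, and the largest non-overlapping differences. The 40 genes, lists and tests were chosen with earlier results of these data known. Alternatives were the scaling, table, pseudocount, filter, small RNA rows (302 tested), replicate block and each library left out; leaving out both SE A libraries was added after the data were seen.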

Additional observations from a re-analysis of the deposited data

Results flagged for a closer look

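The median of the 40 genes above the library median differed by letter in opposite directions in the 2 constructs. A minus B was 0.03 in WT vehicle and 0.04 in WT DOX, and -0.10 in SE vehicle and -0.18 in SE DOX. The mean of the WT pairs exceeded that of the SE pairs by 0.18. Both WT pairs lay on one side of 0 and both SE pairs on the other, which is what drew attention to it, and the difference was not tested.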

How the results depend on the processing

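The 40 genes stayed without a call in every comparison and alternative run, except that all 40 passed in WT DOX against SE DOX without SE DOX B. With the unnormalized table, with equal library medians, and with equal medians and small RNA rows left out (the replicate block added to the last gave the same values), the median of the 40 genes was 0.11, 0.113 and 0.114 for WT against SE in vehicle and 0.102, 0.104 and 0.101 in DOX. In the same order of settings, the sign turned for RRS1 (0.0555, 0.0498, 0.0568), NOP16 (0.0605, 0.0551, 0.062) and POLR2L (0.094, 0.0887, 0.0957) in SE DOX against vehicle. It also turned for NHP2 (-0.101, -0.0985, -0.102), NOP16 (-0.0804, -0.0789, -0.0819) and TAF1B (-0.119, -0.126, -0.129) in the difference of DOX effects. For WT against SE it turned for NOP2 (-0.0639, -0.0632, -0.0626) and NOP10 (-0.00589, -0.0115, -0.011) in vehicle and for NOP2 (-0.0809, -0.0784, -0.0808) and RRP15 (-0.382, -0.364, -0.366) in DOX. By construction these settings remove most of the shift shared by all genes. With no filter on low values, the 40 genes minus all genes tested gave 0.195 in vehicle and 0.198 in DOX for WT against SE, and the cause was not tested. Without both SE A libraries, WT against SE in DOX gave a median of 0.347, a difference from all genes of 0.00494 and RRP15 at -0.0771. The same setting gave 0.0809 for POLR2L in SE DOX against vehicle and, in the difference of effects, -0.0239 for NHP2 and -0.0171 for NOP16.

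The letters A and B gave 2 pairs per comparison and are not stated to mark a shared culture. Deviations of same-letter vehicle and DOX libraries correlated at 0.09 in WT and 0.12 in SE over all genes, and at 0.79 and 0.81 over the 40 genes. The all-gene values do not show that the letters mattered only for the 40. With equal library medians, both A libraries lay above both B libraries in 38.0% of all genes in WT and below in 35.8%. In SE these shares were 31.9% and 40.2%. A minus B of single genes ran from -9.70 to 8.65 in WT and from -10.7 to 11.7 in SE. The weight of such genes in the all-gene correlations was not tested. With the letter as a replicate block, 0 of the 40 genes passed in any comparison. Some of the 40 had an unadjusted limma p under 0.05 with the block in SE DOX against vehicle. They were BYSL, DDX10, GNL2, LTV1, NOC3L, NOP14, POLR1B, RRP12, TSR1, UTP20 and WDR12. So had at least 1663 of the 11465 genes tested, the number that passed the adjusted threshold in this fit. The lowest unadjusted limma p of the 40 was that of BYSL, 0.022 (limma adjusted p 0.0618). Its standard error was 0.12 with the block and 0.22 without. Over all genes the block gave 1663 calls in SE DOX against vehicle (6 without it), 181 in WT (8), 227 for the difference (9), 28 for WT against SE in vehicle (21) and 24 in DOX (12). It brought TAF1A in SE DOX against vehicle past the threshold (limma adjusted p 0.0387).

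Leaving out each library in turn, the calls in WT against SE in DOX ran from 0 to 40 of the 40 genes, their median from 0.347 to 0.865, their difference from all genes from 0.00494 to 0.151 and RRP15 from -0.0771 to 0.368. In SE DOX against vehicle the median ran from -0.513 to 0.0225, the difference from all genes from -0.0849 to 0.071, NCL from -0.59 to 0.0303, NOLC1 from -0.57 to 0.0108, RRS1 from -0.38 to 0.00714, NOP16 from -0.428 to 0.0656 and POLR2L from -0.517 to 0.222. For the difference of effects the median ran from -0.0526 to 0.472, the difference from all genes from -0.0702 to 0.0716, NHP2 from -0.302 to 0.525, NOP16 from -0.115 to 0.378, GNL2 from -0.00912 to 0.537 and TAF1B from -0.0714 to 0.24. The ends of all these ranges were the fits without SE DOX A and without SE DOX B, except the 0 calls, which every other omission also gave. In WT DOX against vehicle RRP9 from -0.309 to 0.139, NHP2 from -0.224 to 0.0635, DDX10 from -0.186 to 0.225, POLR1A from -0.131 to 0.178 and MDN1 from -0.0796 to 0.183, and RRP15 in WT against SE in vehicle from -0.219 to 0.0587. A group left with 1 library was assumed to vary like the others.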
